A study of Mus musculus with 576 samples.

Results

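The cells described here are single haematopoietic stem cells from untreated mouse bone marrow that carried a low level of a p27 marker. They were the control cells labelled p27 low, and those with at least 50000 reads in genes and at least 1000 detected genes were kept. Of the 96 cells with that label 93 were kept, out of 547 kept cells of 576 in the whole series. The 3 cells left out, numbered 10, 11 and 54, had 14965, 44591 and 28556 gene reads, and the shallowest kept cell had 54266. Cells are numbered here as in the labels.

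The series measured RNA in single cells of 6 groups, with 3 levels of the p27 marker (high, low and negative) in each of 2 treatments, control and lipopolysaccharide (LPS). All 6 groups were sorted from marrow of femurs and tibias by the surface markers CD150, cKit and Sca1, all positive, and CD48, negative, a phenotype enriched for long-term stem cells. The comparison groups used here were 84 control p27 high, 95 control p27 negative and 90 LPS p27 low cells. The sources used here do not state the mouse strain, the age and number of animals, or the dose and time of LPS. Each group therefore counts as 1 sample, no difference between groups was tested, and the cells are not replicates of a condition.

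Haematopoietic stem cells sustain all blood lineages for life, and in the adult most of them rest outside the cell cycle in the state called G0. The protein p27, encoded by Cdkn1b, restrains cyclin-dependent kinases and accumulates in resting cells, and the title of the series counts the marker among those of G0. A part of the stem cell pool carries transcripts of the platelet lineage, such as Vwf and Pf4, before any commitment to that lineage, and this is often called platelet priming.

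The 93 cells held 30435191 gene reads, from 54266 to 1408631 per cell with a median of 224003. All numbers of reads per cell below were taken after each cell had been thinned at random to 50000 gene reads, so that deep and shallow cells can be set side by side. Levels over the group are counts per 1000000 summed gene reads (CPM) followed by exact 95% Poisson intervals, and 95% Clopper-Pearson intervals follow the shares of cells. The first cover only the counting of reads, each taken as independent. They do not cover the drawing of cells, and reads here are not molecules. The second cover the drawing of cells, and neither covers differences between animals. Cells numbered 1 to 32 stood apart in their spike-in RNA. The median was 4.88 gene reads per spike-in read in those 30 kept cells, against 21.6 and 21.9 in the 31 kept cells numbered 33 to 64 and the 32 numbered 65 to 96. The same numbers stood apart in the control p27 high cells (medians of 4.45, 18.7 and 20.2) and in the control p27 negative cells (7.13, 33.8 and 36.4). Values are given for these 3 parts for some results only, and a value given without them may also differ between the parts. Cell 30 stood apart in its mitochondrially encoded reads, and 1 control p27 negative cell, with 97.9% of its reads mitochondrially encoded, gave the near-zero lowest values of that group.

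The median cell had reads in 4149 genes (95% interval 4052 to 4229, range 3066 to 5429). The medians were 3925 genes in control p27 high, 4856 in control p27 negative and 3973 in LPS p27 low cells. Over the 93 cells 16885 genes had a read at equal depth. Only 130 of these had a read in all 93 cells, 104 of them protein-coding. A read in at least 90% of cells was found for 464 genes and in at least 50% for 2850. At the other end 7180 genes had a read in under 10% of cells, of which 2819 had one in a single cell.

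The label was checked against the genes of the sorting gate and of stem cells. Kit, the receptor for stem cell factor, ran from 0 to 120 reads per cell with a median of 23 and was found in 92 of 93 cells (98.9%, 94.2 to 99.97%). Ly6a, which encodes Sca-1, was found in 41 cells (44.1%, 33.8 to 54.8%), with a median of 0 and a highest value of 72 reads. Slamf1, the gene of CD150, was found in 36 cells (38.7%, 28.8 to 49.4%) with up to 62 reads. Cd48, whose product the gate excludes, was found in 12 cells (12.9%, 6.85 to 21.5%) and reached 28 reads in cell 47. The gate reads surface protein, so a cell without a read of Ly6a or Slamf1 does not go against the gate.

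**Figure D1:**
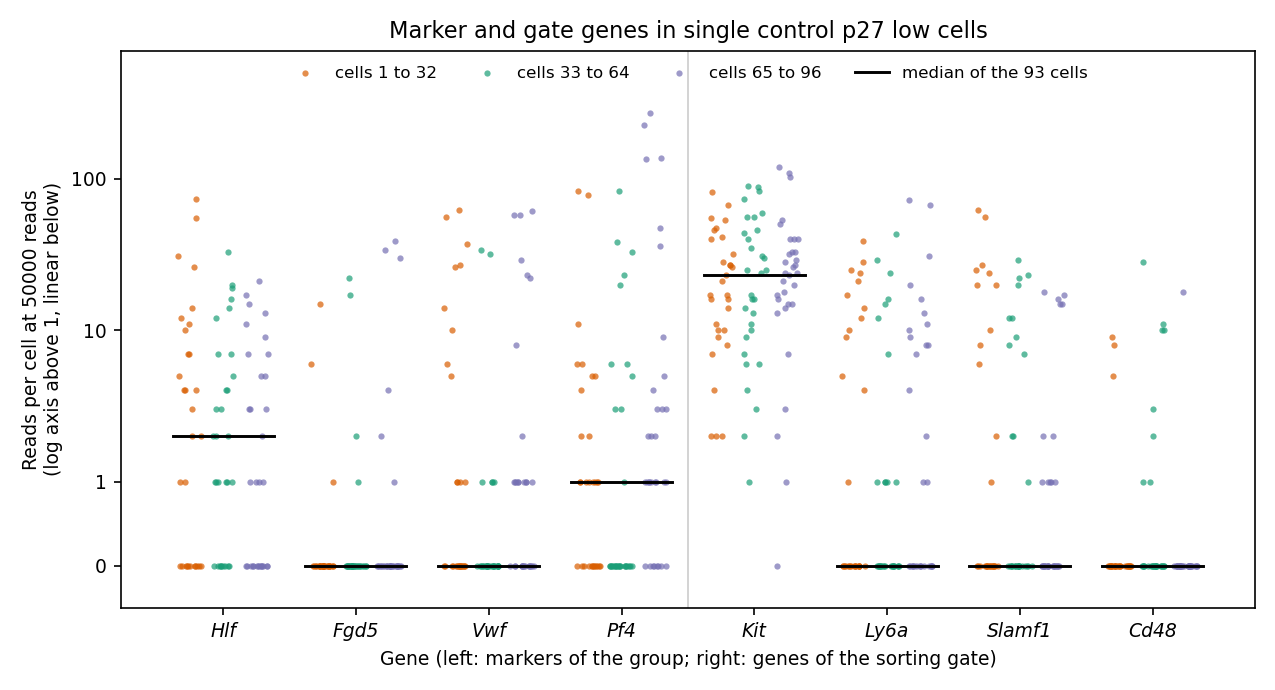
Reads per cell after thinning to 50000 reads (y axis, logarithmic above 1) for the markers of the group and the genes of the sorting gate (x axis), 1 point per cell, coloured by cell number, with a bar at the median of the 93 cells. Kit has a median of 23 reads, Hlf of 2 and Pf4 of 1, and the other genes lie at 0 in most cells with a minority of cells above 10.

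The 4 markers of the group were spread unevenly over its cells. Hlf (ENSMUSG00000003949, chromosome 11, 90336536 to 90390895 in mm10), a transcription factor tied to stem cell identity, had 164 CPM (159.96 to 169) and was found in 59 cells (63.4%, 52.8 to 73.2%). Its reads per cell ran from 0 to 73, in cell 17, with a median of 2. Fgd5 (ENSMUSG00000034037, chromosome 6, 91978878 to 92076004), which encodes a guanine nucleotide exchange factor used to mark stem cells, was found in 13 cells (13.98%, 7.66 to 22.7%) and ran from 0 to 39 reads with a median of 0. It stood at 43.8 CPM (41.5 to 46.2). Hlf was thus present at a few reads in most cells, and Fgd5 was at 0 in most of them.

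Vwf (ENSMUSG00000001930, chromosome 6, 125546774 to 125686679), the gene of von Willebrand factor, had 158 CPM (154 to 163) and was found in 36 cells (38.7%, 28.8 to 49.4%). Its median was 0 and its highest value 62 reads, in cell 22. Pf4 (ENSMUSG00000029373, chromosome 5, 90772435 to 90773383), which encodes the platelet chemokine PF4, stood at 577 CPM (568 to 585) and was found in 53 cells (56.99%, 46.3 to 67.2%). Its median was 1 read and its highest value 271, in cell 67, which held 43.9% of all Pf4 reads of the group. Without that cell Pf4 stood at 338 CPM. Both platelet markers were uneven over the cell numbers. Vwf was found in 43.3% of cells numbered 1 to 32, 19.4% of those numbered 33 to 64 and 53.1% of those numbered 65 to 96, and Pf4 in 60%, 35.5% and 75%. Pf4 levels in these parts were 156, 82.3 and 1369 CPM.

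A single cell had reads of all 4 markers, 20 cells had 3 of them, 31 had 2, 35 had 1 and 6 had none. Hlf and Vwf were found together in 26 cells, Vwf and Pf4 in 26 and Hlf and Pf4 in 29. Fgd5 shared 7 cells with Hlf, 6 with Pf4 and 3 with Vwf. At a limit of 5 reads the shares were 32.3% for Hlf, 24.7% for Pf4, 19.4% for Vwf and 7.53% for Fgd5, so much of the detection rested on a few reads per cell.

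The wider list of 30 long-term stem cell genes had reads in every member, and 29 members stood at 10 CPM or more. Reads of the list summed to a median of 327 per cell and ran from 128 to 658, in cell 18. The members found in at least 90% of cells numbered 7. Among them Ifitm3 and Ifitm1, interferon-induced transmembrane proteins, had 739 and 574 CPM, the tetraspanin gene Cd81 614 CPM, the transcription factor genes Meis1 and Gata2 449 and 448 CPM, and Pdzk1ip1, which encodes a small membrane protein, 361 CPM. Members outside these 7 were found in fewer cells. Procr, which encodes the protein C receptor EPCR, had 93.1 CPM and was found in 32 cells, 1 of which held 38.8% of its reads. Sult1a1, a sulfotransferase gene, had 60.5 CPM in 21 cells, Mecom 56.3 CPM in 32 cells, Tek, the gene of the angiopoietin receptor TIE2, 56.5 CPM in 22 cells and Hoxb5 21.7 CPM in 17 cells. Neo1 was the member under 10 CPM, at 0.953 CPM in 2 cells.

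The 7 heptad factors, transcription factors that bind together at stem cell enhancers, all had reads. Lmo2 led with 1191 CPM (1179 to 1204), was found in 92 cells and ran from 0 to 149 reads with a median of 52. Gata2 followed with a median of 23 reads, Lyl1 with 12, Fli1 with 7 and Runx1 with 4, and Tal1 and Erg were found in 48 and 38 cells. Lmo2 and Gata2 had reads in more of these cells than the markers of the group, 98.9% and 91.4% of them. Their levels were also above those of Hlf, Vwf and Fgd5, and the share of cells with a read rises with level.

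Many genes of mature blood cells were at or near 0, and a few were not. In the lymphoid list 9 of 21 genes had no read in any cell, among them the T cell receptor component Cd3e, the recombinase genes Rag1 and Rag2 and the interleukin 7 receptor gene Il7r, and a count of 0 allows up to 0.0986 CPM at this depth. The lymphoid reads that were present came mainly from Nkg7, a granule protein gene, at 152 CPM in 51 cells, and Cd79b at 58.5 CPM in 24 cells. In the granulocyte and monocyte list 15 of 18 genes were in under 10% of cells. Lyz2, the gene of lysozyme, was the exception with 803 CPM in 90 cells and a median of 36 reads, followed by Prtn3, the gene of proteinase 3, with 239 CPM in 66 cells. Mpo, the gene of myeloperoxidase, had 5.29 CPM in 3 cells. Among 16 erythroid genes Slc4a1 had no read and the globin genes Hbb-bt and Hba-a1 stood at 1.38 and 0.789 CPM. Macrophage, mast cell and basophil, endothelial and stromal lists each had a median of 0 reads per cell.

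Single cells carried small numbers of reads of such other cell types. Cell 3 held 25 thinned reads of the complement gene C1qb, with 97.1% of its reads in the group, and all reads of Csf1r and of Stab2. Cell 48 held all reads of Plvap, a gene of fenestrated endothelium, 93.1% of the reads of Ms4a2, a chain of the mast cell IgE receptor, and the highest values of Car1 (139 reads), Klf1 (45 reads) and Cpa3 (24 reads). Whether these reads came from the sorted cell or from another was not tested.

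The most abundant transcripts were compared per kilobase of exon (RPKM), with merged exon lengths from the GENCODE M21 annotation. The 20 protein-coding genes with the most reads per kilobase, mitochondrially encoded genes apart, held 5.83% of all gene reads, and 19 of them were found in all 93 cells. B2m, the light chain of MHC class I, led with 4831 RPKM, followed by Actb, the gene of beta-actin, with 4079 RPKM. The next was Slc34a2 (ENSMUSG00000029188, chromosome 5, 53038081 to 53071664), which encodes a sodium-phosphate cotransporter best known from lung and gut epithelium, with 1880 RPKM. Its reads per cell ran from 13 to 2238 with a median of 658, and it was found in every cell. The level was 5803 CPM in cells 1 to 32, 10117 in cells 33 to 64 and 11981 in cells 65 to 96. Slc34a2 had 13212 CPM in control p27 high, 6774 in control p27 negative and 7093 in LPS p27 low cells, so the high level was shared by all 4 groups.

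Protein synthesis and antigen presentation filled most of the other places. Rpl4, Rpl8, Rplp0 and Rplp1 encode ribosomal proteins and had 1780, 1618, 910 and 887 RPKM, and the elongation factor gene Eef1a1 had 1026 RPKM. The MHC class I heavy chain genes H2-K1 and H2-D1 had 1086 and 990 RPKM, and reads of these close relatives may have been divided between them. Car2, a carbonic anhydrase gene of the erythroid list, had 1156 RPKM and a median of 137 reads per cell. Gpx1, a glutathione peroxidase gene, had 1123 RPKM, Ifitm3 1091 RPKM and Hsp90ab1, a chaperone gene, 902 RPKM. Tmsb4x, the gene of thymosin beta 4, had 904 RPKM, and cell 67 held 19.7% of its reads. Pf4, at 800 RPKM, was the one gene of the 20 that was absent from many cells. Its place rests on cell 67, without which it stood at 469 RPKM and ranked 40, and it was 399 RPKM with all cells weighted equally.

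Protein-coding genes took 87.9% of the gene reads, nuclear ribosomal RNA 4.26%, mitochondrial ribosomal RNA 3.55% and processed pseudogenes 2.55%. Genes with near-identical copies are uncertain in these counts. The glycolysis gene Gapdh, for example, stood at 28.6 CPM beside 1027 for Aldoa and 1333 for Ldha, and no read was recorded as aligned to several places. The pseudogenes Rps16-ps2 and Rps19-ps6 had 541 and 332 RPKM, against 118 RPKM for Rps16 itself, and the division of reads between such copies was not tested.

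**Figure D2:**
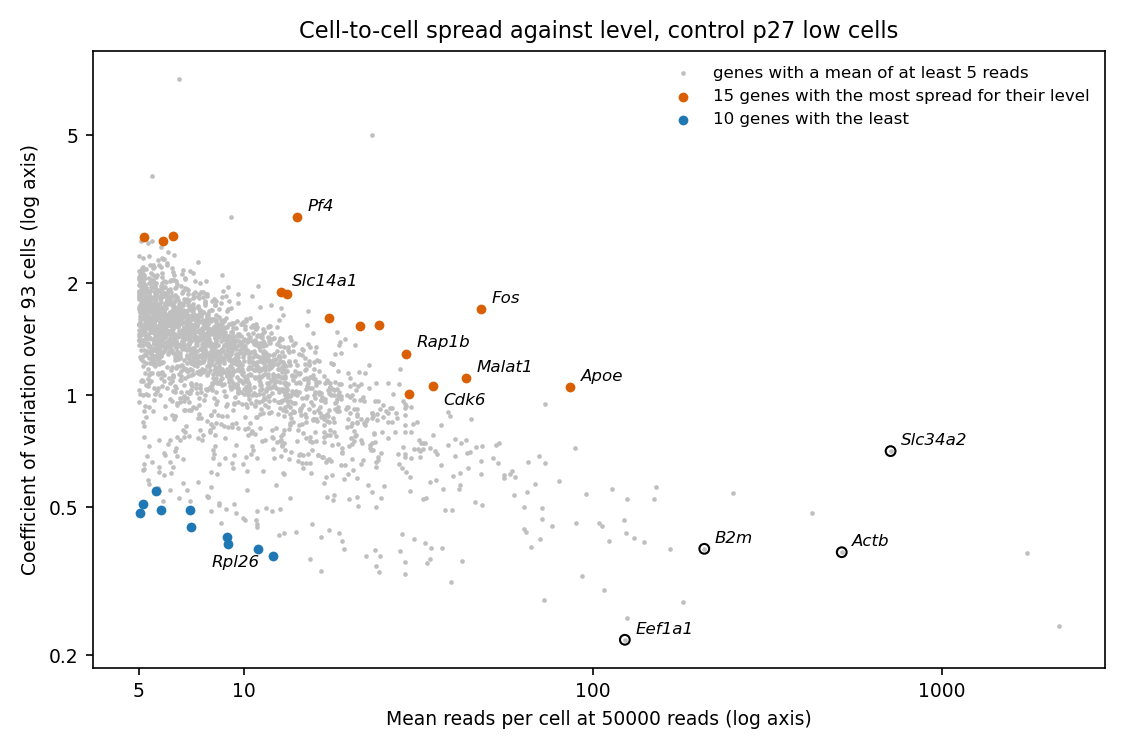
Coefficient of variation over the 93 cells (y axis, logarithmic) against mean reads per cell at 50000 reads (x axis, logarithmic) for 2352 genes with a mean of at least 5 reads. Pf4, Fos, Rap1b and Apoe lie above genes of the same level, ribosomal protein genes such as Rpl26 lie below them, and Eef1a1 has the lowest value, 0.22.

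Cell-to-cell spread was measured as the coefficient of variation (SD over mean) for the 2352 genes with a mean of at least 5 reads. It had a median of 1.29 and exceeded 1 for 1762 genes (74.9%) and 2 for 88. The spread falls with level because few reads vary more by sampling, so genes were ranked against others of the same level. Pf4, with a coefficient of 3.02, was among the 15 genes with the most spread for their level.

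Fos, an AP-1 transcription factor gene induced within minutes of a stimulus, was at 0 in 16 cells, had a median of 17 reads and reached 585 in cell 76. Dusp1, a phosphatase gene of the same response, had a median of 5 and a highest value of 168 reads. Rgs1, a regulator of G protein signalling, had a median of 6 and reached 150. Malat1, a nuclear long noncoding RNA, was found in every cell with a median of 32 reads and a highest value of 413. Apoe, the apolipoprotein E gene, was found in 91 cells, with a median of 54 and a highest value of 484 reads.

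Rap1b, a small GTPase gene of integrin signalling in platelets, was at 0 in 13 cells and at 20 or more reads in 44, with a highest value of 160. Slc14a1, a urea transporter gene, was at 0 in 37 cells and reached 107 reads. Cdk6, a kinase of the G1 phase, ran from 0 to 173 reads with a median of 24 and a coefficient of variation of 1.06. Mcm6, a subunit of the replicative helicase, ran from 0 to 109 with a median of 22. Hist1h1c, a linker histone gene, had a median of 1 and a highest value of 122 reads. The long noncoding RNA Gm19590, the RNA-binding protein gene Pum2, the co-chaperone gene Bag2 and the ESCRT gene Vps4a were the other members of the 15, with highest values of 189, 203, 87 and 94 reads.

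The 10 genes with the least spread for their level were 5 ribosomal protein genes, among them Rpl26, Rps15, Rps16 and Rpsa, and 5 entries annotated as processed pseudogenes. Rpl26, Rps15, Rps16 and Rpsa had coefficients of variation of 0.40, 0.39, 0.49 and 0.55. Eef1a1, at a median of 123 reads, had 0.22, the lowest of all 2352 genes.

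A few well-expressed genes were on in some cells and off in others. At 0 reads in at least 30% of cells and at 20 reads or more in at least 30% stood 6 genes. Pink1, a mitochondrial quality control kinase gene, was at 0 in 41 cells and at 20 reads or more in 28. Tpst2, a tyrosylprotein sulfotransferase gene, was at 0 in 28 cells and at 20 or more in 34, and Napa, a membrane fusion factor gene, at 0 in 28 and at 20 or more in 32. Klhl6, Farsa and Vim, the gene of vimentin, had 31, 28 and 28 cells at 0 and 29, 29 and 28 cells at 20 reads or more. The number of such genes rests on the depth: it was 221 in the 85 cells that could be thinned to 100000 reads. It is not known from these libraries whether a 0 was an absent transcript or one that was not captured.

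**Figure D3:**
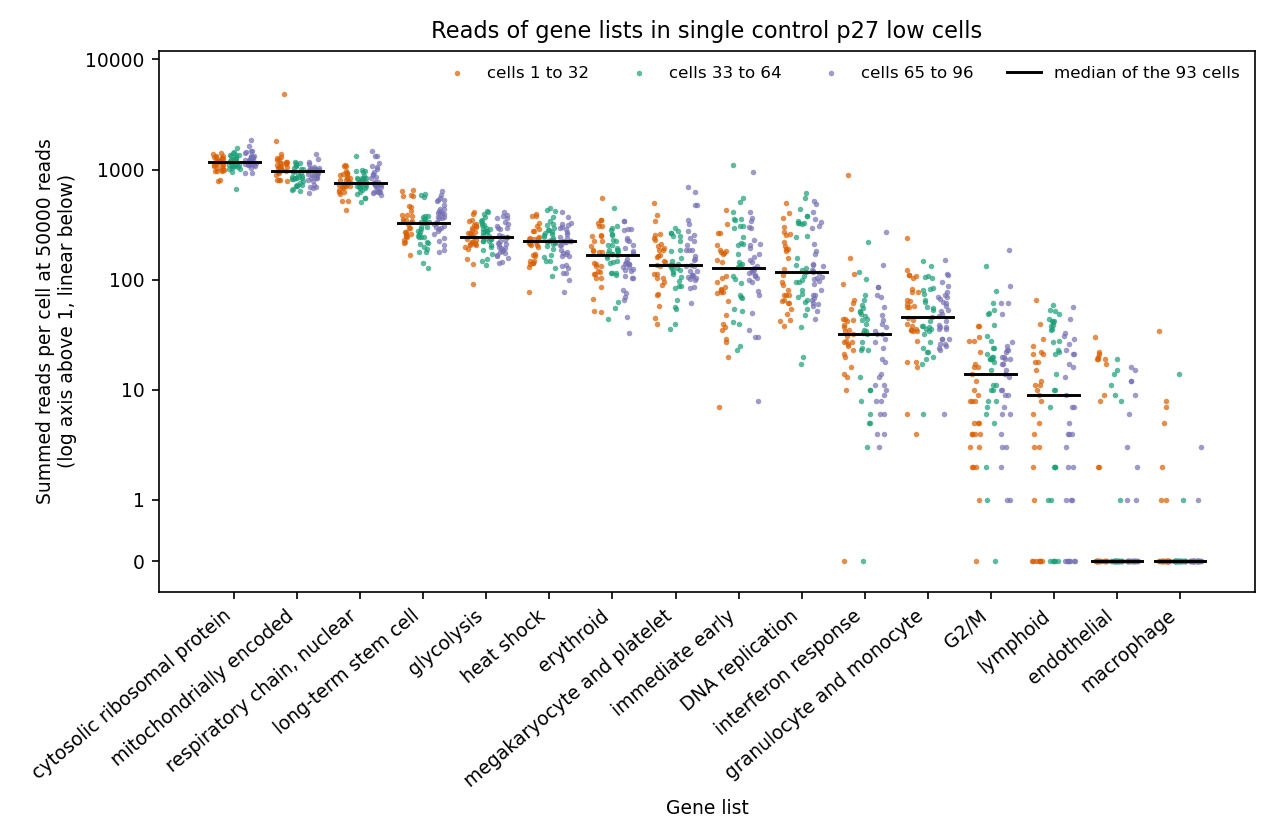
Summed reads per cell after thinning to 50000 reads (y axis, logarithmic above 1) for 16 gene lists (x axis), 1 point per cell, coloured by cell number, with a bar at the median. Ribosomal protein reads lie between 670 and 1855 in every cell, while interferon response, G2/M and immediate early reads include cells far above the rest, such as cell 28 with 888 interferon response reads.

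Summed over gene lists, some lists were even over the cells and others were not, and lists with few reads vary more by sampling. Reads of 84 cytosolic ribosomal protein genes ran from 670 to 1855 per cell with a median of 1178 and a coefficient of variation of 0.15. Nuclear genes of the respiratory chain (93 genes) had a median of 759 reads and a coefficient of 0.24, glycolysis genes (22) a median of 246 and 0.29, and heat shock genes (10) a median of 223 and 0.36. G1 regulators, with a median of 151 reads, had 0.36, and long-term stem cell genes, with a median of 327, had 0.37. By contrast the coefficient was 0.68 for the megakaryocyte and platelet list, 0.80 for DNA replication and 0.99 for immediate early genes. It was 1.31 for G2/M genes, with a median of 14 reads, and 1.96 for the interferon response, with a median of 32. The interferon value rests on cell 28, without which it was 1.06, below the 1.12 that G2/M genes had without their highest cell.

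Respiratory chain reads were led by Atp5b and Atp5a1, subunits of ATP synthase, with 2399 and 1654 CPM. The 13 mitochondrially encoded protein genes had a median of 970 reads per cell, from 619 to 4809. The highest value was in cell 30, where they took 9.68% of the gene reads. The next cell, number 2, had 1823 reads of the 13 genes. With mitochondrial ribosomal and transfer RNA counted too, 26.01% of the gene reads of cell 30 were mitochondrially encoded, against a median of 5.52% over the group. Over the 93 cells the reads of DNA replication genes and of nuclear respiratory chain genes were correlated with a Spearman rho of 0.61, and with 0.59, 0.65 and 0.57 within the 3 parts. It was the highest of the 136 pairs among 17 lists, and detected genes per cell were correlated with both lists (0.45 and 0.55). Both sums of a cell come from 1 library, and the relation is given as a description.

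Cell cycle genes separated a small number of cells from the rest. The 30 G2/M genes summed to a median of 14 reads per cell, and 2 cells had none. The medians in the 3 parts of the cell numbers were 8, 19 and 16 reads. The highest cells were cell 67 with 186 reads, cell 40 with 132 and cell 94 with 87, from 15, 15 and 16 of the 30 genes. In cell 67 the genes with the most reads were Cenpa (45), a centromeric histone gene, Cdca8 (41), a chromosomal passenger gene, and the mitotic cyclin gene Ccnb2 (37). Cell 40 had 27 reads of Mki67, the gene of Ki-67, 22 of the mitotic kinase gene Aurkb and 18 of the kinetochore gene Ndc80. Each of these 3 genes was above its highest value in any other cell. Other members of the list were absent, as cell 67 had no thinned read of Top2a, Plk1 or Aurkb. Cell 40 had none of Ccnb1, Plk1 or Cdc20. Together such cells held large parts of the group's levels, as cell 67 had 53.1% of Ccnb2 reads and cell 40 had 35.4% of Mki67 reads. Cells 67 and 40 were also deep, with 1339706 and 1302938 gene reads, while cell 94 had 79572.

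DNA replication genes were more widely present, with a median of 117 reads per cell and a range of 17 to 613, in cell 40. The helicase subunit genes Mcm6, Mcm2 and Mcm3 had 588, 417 and 407 CPM, and Rfc2, a clamp loader gene, 427 CPM in 84 cells. Rrm2, the regulated subunit of ribonucleotide reductase, had 65.3 CPM in 23 cells, and Cdc6, an origin licensing factor, 16.5 CPM in 8 cells. Among the G1 regulators Cdk4 and the D-type cyclin gene Ccnd2 were found in all 93 cells, with medians of 32 and 30 reads. Cdkn1b, which encodes p27 itself, had 68.5 CPM (65.6 to 71.5) and was found in 62 cells, with a median of 2 and a highest value of 21 reads. Cdkn1c, the gene of the related inhibitor p57, had 26.6 CPM in 14 cells, and Cdkn2a and Cdkn2b had no read.

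The megakaryocyte and platelet list had reads for 21 of its 22 genes, with a median sum of 137 reads per cell and a range of 36 to 700. Its transcription factor gene Nfe2 had 895 CPM in 92 cells with a median of 39 reads, and Cd9, a tetraspanin gene, 361 CPM in 82 cells. Itga2b, the gene of the integrin CD41, had 392 CPM in 65 cells with a median of 5 and a highest value of 134 reads. The components of the platelet glycoprotein Ib complex were sparser. Gp9 and Gp5 had 113 and 111 CPM in 47 and 37 cells, and Gp1bb and Gp1ba 74.2 and 37.5 CPM in 21 and 19 cells. At 10 CPM or more stood 18 of the 22 genes. Among the lowest were Ppbp at 4.24 CPM, Tubb1 at 0.164 CPM and Gp6 with no read.

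The highest cells on this list were cells 67, 84 and 32, with 700, 632 and 501 reads from 18, 15 and 13 of the genes. Pf4 had 271, 225 and 83 reads in them, Itga2b 85, 50 and 112, and Gp5 17, 8 and 16, against medians of 1, 4 and 0 in the other cells. Vwf had 1, 22 and 56 reads in the same cells, so the cell with the most Pf4 had almost no Vwf. Pf4, Itga2b and Gp5 were not the only list genes with reads in all 3 cells. The 250 bases just before the annotated starts of these 3 are shown, from RefSeq on GRCm38.p6, read 5′ to 3′ on the strand of the gene. Capitals mark AGATAA or its reverse complement TTATCT, a spelling among those bound by GATA factors such as the product of Gata1. Other spellings were not searched or marked. Pf4 lies on the plus strand (chr5:90772185-90772434), Itga2b on the minus strand (chr11:102469884-102470133) and Gp5 on the minus strand (chr16:30310782-30311031).
Pf4: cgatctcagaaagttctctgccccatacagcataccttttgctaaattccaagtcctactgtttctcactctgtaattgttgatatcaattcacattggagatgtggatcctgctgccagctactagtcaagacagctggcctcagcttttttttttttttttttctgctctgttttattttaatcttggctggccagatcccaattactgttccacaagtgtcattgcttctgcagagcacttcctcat
Itga2b: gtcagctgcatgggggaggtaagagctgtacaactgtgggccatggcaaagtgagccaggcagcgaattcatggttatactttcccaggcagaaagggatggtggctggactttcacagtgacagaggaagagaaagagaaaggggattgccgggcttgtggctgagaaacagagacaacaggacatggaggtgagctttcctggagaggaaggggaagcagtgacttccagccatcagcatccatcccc
Gp5: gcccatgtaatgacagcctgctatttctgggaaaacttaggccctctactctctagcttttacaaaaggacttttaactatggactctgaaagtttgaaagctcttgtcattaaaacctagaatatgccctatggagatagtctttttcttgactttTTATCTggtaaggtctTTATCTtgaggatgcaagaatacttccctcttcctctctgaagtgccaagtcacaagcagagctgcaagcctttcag
The Gp5 window held 2 matches and those of Pf4 and Itga2b held none. The window of Gp9, which had 4, 32 and 53 reads in the same cells, also held none and is not shown. Over all 32851 RefSeq promoters of this length 9.99% held a match, and 3 of the 16 platelet-list genes with an entry did. The letters are a description of the windows only.

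Erythroid reads were dominated by Car2, with 2800.4 of the 3288 CPM of the list. Gata1 (ENSMUSG00000031162, chromosome X, 7959260 to 7978071), the transcription factor of erythroid and megakaryocytic cells, had 186 CPM (181 to 191) and was found in 45 cells. It was at 0 in 48 cells, at 20 reads or more in 17 and at 72 reads in cell 41. The erythropoietin receptor gene Epor had 52.8 CPM in 28 cells, and Klf1, a factor of red cell genes, 37.8 CPM in 17 cells.

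Interferon response genes were low in most cells, and 8 cells had 100 reads or more of the list. The 18 genes summed to a median of 32 reads per cell. Cell 28 had 888 reads and reads of all 18 genes, followed by cells 78 and 58 with 271 and 221. Cell 28 held 226 reads of Oasl2, a relative of the oligoadenylate synthetases, 182 of Ifi44 and 66 of Ifit1, and 93.9% of all Ifit1 reads, 98.0% of Ifit3 and 97.5% of Mx1 reads of the group. Its Ifitm3, at 139 reads, was also the highest of the 93 cells. The LPS p27 low cells ran from 0 to 2122 reads of the list with a median of 363. All 18 genes had at least 2-fold lower levels in control than in LPS p27 low cells, against 8.07% of 10141 measured genes. The median log2 difference was -3.32 over the list and 0.18 over all genes. A difference between animals cannot be told apart from one between treatments here. In LPS p27 low cells the numbers 1 to 32 did not stand apart in gene reads per spike-in read (medians of 24.3, 25.4 and 22.8 in the 3 parts).

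Immediate early genes ran from 7 to 1105 reads per cell with a median of 129, and medians of 90.5, 145 and 126 in the 3 parts. Cells 48 and 76 were the highest with 1105 and 957 reads, followed by cell 60 with 547. In cell 48 Fos had 275 reads, the early response gene Ier2 162, Dusp1 159, Jun 135, Egr1 126 and Btg2 85. In the heat shock list Hsp90ab1 led with 2706 CPM, and the cell with the most reads of the whole list had 2.01 times the median.

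Calcium genes are named in the series title and were measured as a list of 28, all with reads and 27 at 10 CPM or more. Their sum was even, from 64 to 289 reads per cell with a median of 154 and a coefficient of variation of 0.29. The calmodulin gene Calm2 had 487 CPM with a median of 24 reads. Atp2a3, an endoplasmic reticulum calcium pump gene, had 248 CPM in 70 cells. Of the store-operated channel genes Orai3 had 202 CPM in 55 cells and 1 cell held 22.3% of its reads, Orai1 88.6 CPM in 46 cells and Orai2 48.4 CPM in 25. The store sensor genes Stim1 and Stim2 had 40.9 and 16.8 CPM, and the mitochondrial uniporter gene Mcu 20.1 CPM in 17 cells.

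**Figure D4:**
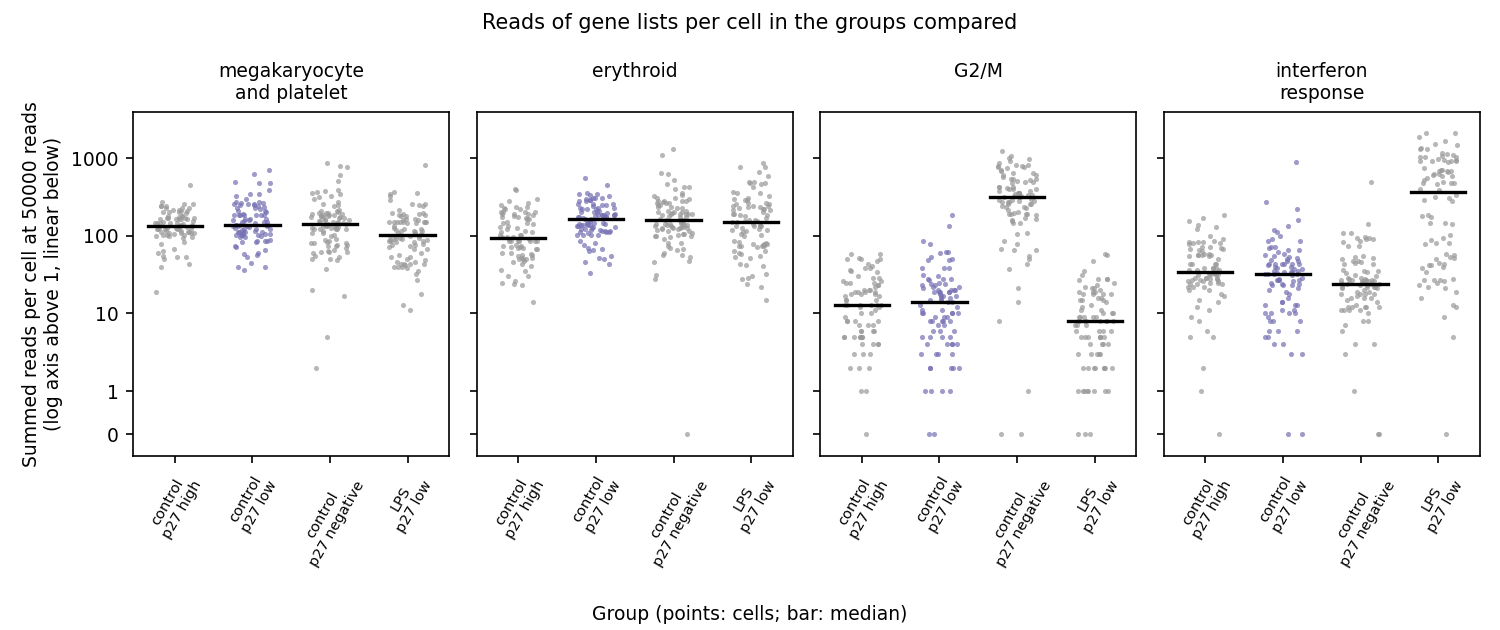
Summed reads per cell after thinning to 50000 reads (y axis, logarithmic above 1) for 4 gene lists (panels) in 4 groups (x axis), 1 point per cell and a bar at the median. From left to right the G2/M medians are 13, 14, 313 and 8 reads, and the erythroid medians are 94, 167, 160 and 149.5.

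Beside control p27 high cells, the p27 low cells had higher levels of 6 of 9 erythroid genes and 11 of 19 platelet genes. The comparison took genes with at least 10 CPM in either group and asked for a 2-fold difference after adding 1 CPM. Of 10324 genes 17.4% passed, 7.76% higher and 9.62% lower in p27 low cells, and the median log2 difference was -0.0045. In the erythroid list 6 of 9 genes were at least 2-fold higher and none lower, with a median log2 difference of 1.74. Gata1 had 186 against 24.8 CPM (log2 2.86) and was found in 48.4% against 17.9% of cells. In the megakaryocyte and platelet list 11 of 19 were higher and 1, Ppbp, lower, with a median of 1.15. Without cell 67 it was 9 of 19, with a median of 0.94. Pf4 had 577 against 87.8 CPM (2.70), but the shares of cells with Pf4 were 56.99% and 55.95% and its median was 1 read in both groups. The larger level came with a highest cell of 271 against 113 reads, in cell 67. Cells 84, 79 and 69 were also above 113, with 225, 137 and 136 reads. All of these cells are numbered 65 to 96. Of the Pf4 levels by cell number given above, that of cells 33 to 64 was below 87.8 CPM. Those of cells 1 to 32 and, by far more, of cells 65 to 96 were above it. Itga2b had 392 against 108 CPM (1.85). The summed platelet reads of the median cell were 137 and 133.5.

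The stem cell list had 2 of 29 genes higher and 3 lower, shares near those over all genes, and a median of -0.30. Vwf, with 158 against 55.5 CPM, and Clca3a1, with 33.3 against 10.2, were the higher ones, and cell 67 held 42.1% of the Clca3a1 reads. Of the lower ones Sult1a1 had 60.5 against 354 CPM, Procr 93.1 against 228 and Ifitm1 574 against 1214. Hlf had 164 against 273 CPM (-0.73), with a read in 63.4% against 86.9% of cells and a median of 2 against 9 reads. Fgd5 had 43.8 against 28.7 CPM, with reads in 13.98% and 21.4% of cells, so its level and its share went opposite ways. Ly6a had 122 against 331 CPM (-1.43). G2/M genes had 12 of 20 higher and 4 lower with a median of 1.42, and this rests on few cells. The summed G2/M reads of the median cell were 14 and 13 in the 2 groups, and the highest cells had 186 and 59.

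The genes furthest apart by size, 5 each way, were Khnyn, Haus8, Cavin2, Fgf3 and Gata1 on the higher side and Gm45837, Tns2, Serpina3f, Tinagl1 and Chpt1 on the lower. Cavin2, a caveolar coat gene also present in platelets, had 159.9 against 20.4 CPM and Fgf3, a fibroblast growth factor gene, 87.9 against 11.3 CPM. Serpina3f, a serine protease inhibitor gene, had 6.31 CPM against 54.5 in p27 high and 2227 in LPS p27 low cells.

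Beside control p27 negative cells, the p27 low cells had lower levels of all 30 G2/M genes. Of 10236 genes 18.6% passed 2-fold, 10.2% higher and 8.42% lower in p27 low cells, and the median log2 difference was 0.063. All 30 G2/M genes were at least 2-fold lower, with a median of -3.89, and the 5 genes furthest apart on this side were Neil3, Nusap1, Plk1, Ncapg and Nuf2. Nusap1, a spindle protein gene, had 2.50 CPM against 266, and Neil3, a DNA glycosylase gene, 1.91 against 263. The summed G2/M reads of the median cell were 14 against 313, and the ranges of 0 to 186 and 0 to 1241 overlapped. DNA replication genes had 20 of 30 lower and 1 higher with a median of -1.24. Mcm6 had 588 against 753 CPM and Rrm2 65.3 against 298.

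The stem cell list had 9 of 29 genes higher and 1 lower against p27 negative cells, with a median of 0.49. Fgd5 had 43.8 against 6.25 CPM (2.63), Hlf 164 against 93.2 (0.81) and Ifitm1 574 against 211. Platelet genes had 2 of 18 higher and none lower, with a median of 0.15, but 1 higher, 2 lower and a median of -0.078 without cell 67. Pf4 had 577 against 687 CPM (-0.25), and 338 against 687 CPM without cell 67. Gata1 was level at 186 and 182 CPM. Car1, a carbonic anhydrase gene of red cell precursors, had 36.04 against 384 CPM. The 5 genes furthest apart on the higher side were 1700030K09Rik, Samd10, the pseudogene Gm11346, Ctsf, a cathepsin gene, and Ahdc1, of which Samd10 had 127 against 13.9 CPM. Both comparisons use the same p27 low cells, and in all 3 control groups a difference between animals cannot be told apart from one between marker classes.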

How the data were processed

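The series holds 576 single-cell RNA libraries in 6 groups of 96 cells, of which 93 cells are described here. Per the labels' protocols, single cells were sorted into plates, amplified by a full-length method (Picelli and colleagues, SMART-seq2) and turned into libraries with the Nextera XT kit. The authors deposited un-normalized read counts for each gene and cell. The submitters' processing notes name GSNAP, HTSeq 0.6.0 and the mm10 genome. For the annotation, strandedness and read filters nothing is given in the sources used here, so overlapping and antisense genes cannot be told apart. The libraries carry no molecular identifiers, so reads are not molecules.

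Of the reads of the 93 cells 31.1% were assigned to genes, 3.17% to spike-ins, 7.00% to no feature and 3.58% were ambiguous, while 55.1% were not aligned. The 5 summary entries and 92 spike-ins stayed out of totals, and 45143 of 46078 gene entries were named by ID from GENCODE M21. No doublet removal or clustering was done and cells were not filtered on mitochondrially encoded reads. CPM are summed reads of a gene per 1000000 summed gene reads. RPKM are CPM per kilobase of merged exons. Each cell was thinned once, with a fixed seed, to 50000 reads. Spread for a level is log10 of the squared coefficient of variation minus the median of 20 bins of mean. The ranking by spread and the 2-fold limit were run on simulated data, with outcomes not given here. The check of thinning compared totals that thinning itself fixes, so it tests nothing. Python 3.11.15, scipy 1.17.1 and, for TMM factors, edgeR 4.0.16 were used.

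Groups of 1 sample allow no test, so no p-value is given. The members and the 22 gene lists were chosen with earlier results of these data known. Named by rule were the first 20 genes per length, the 15 most and 10 least variable genes, and the on and off genes. The variable genes had a mean of at least 5 reads. For the 15 most variable, at least 20% of cells had a read and no cell held over 25% of the thinned reads. Also named by this rule were the first 4 of each list by CPM, the markers and gate genes and 5 genes each way per comparison. A few genes named by this rule are not reported here. For those comparisons the higher group had a read in 20% of its cells and no cell held over 25% of its reads. Other list members and the cells named by number were chosen after their values were seen. Alternatives were other cell filters, depths, detection limits, pseudocounts, scalings and parts of the cells.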

Additional observations from a re-analysis of the deposited data

How the results depend on the processing

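No paired analysis was possible because the results come from no test. Values within the 3 parts of the cell numbers stand in its place. Detected genes per cell numbered 4726 at 100000 reads (85 cells), 5612 without thinning and 2319 at 5 reads, and 4037 and 4245.5 in cells 33 to 64 and 65 to 96. Broadly detected genes numbered 1012 without thinning and 161 at 5 reads. The 6 on and off genes became 14 in the 54 cells with at least 200000 reads, 221 at 100000 reads, 609 without thinning, 407 at 10 reads for on, and 44, 30 and 11 in the 3 parts, each of which has fewer cells. Without thinning and at 5 reads the shares were 27.96% and 7.53% for Fgd5, 78.5% and 32.3% for Hlf, 60.2% and 19.4% for Vwf, and 83.9% and 24.7% for Pf4, which had 71.8% at 100000 reads. In cells 33 to 64 and 65 to 96 they were 19.4% and 53.1% for Vwf and 35.5% and 75% for Pf4, and the cause was not tested. Genes past 2-fold against p27 high cells, 1794 above, numbered 3548 without a filter on low values and 4085, 3836 and 3468 in the parts. Against p27 negative cells 1906 became 3654, and 3838, 3575 and 3261. Under TMM factors 47.5% and 50.99% of the genes past 2-fold were higher in p27 low cells, against 44.6% and 54.8%. The balance against p27 negative cells turned with the top cell of each gene left out (888 higher, 932 lower) and in cells 65 to 96 (1528 and 1733). Of the levels of 148 named genes 17 were over 1.5 times higher and 6 lower with cells weighted equally, 15 lower without the top cell and 12 lower in cells with at least 200000 reads. Leaving out cell 28, cell 67, the highest cell of a list or cells 1 to 32 was added after seeing the data. Without cell 28 the median was 4151 detected genes and Pf4 was found in 57.6% of cells, and without cells 1 to 32 the values were 4162 and 55.6%. Depth limits all shares, since a gene at 0 at 50000 reads often had reads in the whole library.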

Other observations

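Values outside the comparisons came from single cells. Cell 3, which held 97.1% of the C1qb reads, also had the highest Itgb3 (42 reads) and Gp1ba (18 reads) of the 93 cells. Cell 58 had the highest Cenpa (76 reads) and Ccnd2 (149 reads), and cell 17 the highest Hlf (73 reads) and Mllt3 (63 reads). Atf3, a stress response factor gene, had 3.48 CPM, and 1 cell held 95.3% of its reads.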
